A study of Mus musculus with 9 samples.

Results

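The 9 genes described here are a chosen part of the Ms4a family outside the chain of the IgE receptor, read from the gene tables of 9 RNA-seq libraries. They are Ms4a3, Ms4a4a, Ms4a4b, Ms4a4c, Ms4a6b, Ms4a6c, Ms4a6d, Ms4a7 and Ms4a8a, and they were taken by their symbol from tables of 55274 gene identifiers. They were chosen with their levels in these libraries known, so their levels and differences are given as a description, with no test. Ms4a2, which lies among them, and the 9 other genes with an Ms4a name were kept apart for comparison.

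Bone marrow cells of C57BL6/J mice, harvested 4 days after 150 mg/kg of 5-fluorouracil, were grown for 48 h with interleukin-6, interleukin-3 and stem cell factor and then transduced with retroviruses. There were 3 groups of 3 libraries: NRASG12D cells carried an activated NRAS (a RAS protein locked in its signalling state) from a vector with a blue fluorescent marker, NUP98-NSD1 cells carried the leukaemia fusion of a nuclear pore protein with a histone methyltransferase from a vector with a green one, and NUP98-NSD1+NRASG12D cells carried both. All groups shared the 5-fluorouracil, the cytokines, the sorting on fluorescence and the expansion in culture, and no library of untransduced cells was used here. The study's account describes the NRASG12D cultures, unlike the others, as mast cells in the main. By that account the groups differ in cell type too. In the libraries, however, mast cell genes were abundant in NUP98-NSD1 as well, and far lower only in NUP98-NSD1+NRASG12D, as given below. Both transgenes were read from a retroviral promoter and not from their own genes. The labels do not say whether libraries of a group came from separate transductions, and p-values then measure only the spread between these libraries.

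The values are FPKM, read fragments divided by transcript length and by the library's mapped fragments, which allow levels to be compared between genes of different length. The depth of the libraries, estimated from the steps between low values, was 23500000 to 37100000 fragments, and intervals and floors from it cover counting error only. Nras stood at 348 to 479 FPKM in NRASG12D libraries, 47.7 to 51.2 in libraries of NUP98-NSD1 alone and 245 to 701 in those of NUP98-NSD1+NRASG12D. A list of 11 mast cell genes summed to 30593 to 33301 FPKM in NRASG12D, 27091 to 32185 in libraries of NUP98-NSD1 alone and 744 to 4373 in those of NUP98-NSD1+NRASG12D. Cpa3, a mast cell protease of that list, was listed at 0 in all NRASG12D libraries and at 12564 to 14379 FPKM in NUP98-NSD1 libraries. The list without it summed to 30593 to 33301, 13952 to 17807 and 464 to 2552 FPKM in the 3 groups, and with it 5 of the 11 genes were lower and 3 higher in NUP98-NSD1 against NRASG12D cells by limma, where 9.98% of all tested genes were lower and 42.2% higher. Besides Cpa3, no other gene was at 0 throughout one group and at 1000 FPKM or more throughout another. A listed 0 can therefore be a failed estimate, and groups that hold one are given library by library. In RNA from mixed cultures, fewer cells of a type and less RNA per cell cannot be told apart.

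Ms4a genes encode small proteins that cross the membrane by 4 segments and act beside immune receptors, for example as CD20 on B cells (Ms4a1) or as the beta chain of the high-affinity IgE receptor on mast cells (Ms4a2). Ms4a3 is a marker of granulocyte and monocyte progenitors and binds a phosphatase of cyclin-dependent kinases. Ms4a4a, Ms4a6d, Ms4a7 and Ms4a8a are best known from macrophages, Ms4a4c and Ms4a6c from monocytes and interferon responses, and Ms4a4b from T cells.

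On mouse chromosome 19 (GRCm38), 19 genes with an Ms4a name lie between 10962293 and 11640851, a span of 678.559 kb, with 3 other coding genes among them. Ms4a8a lies apart from the other 8, at chr19:11067471-11081102. The others follow from Ms4a7 at chr19:11321039-11336146 on the minus strand through Ms4a4a (chr19:11375523-11392790), Ms4a4c (chr19:11404770-11427246), Ms4a4b (chr19:11443553-11467055), Ms4a6c (chr19:11469366-11482192) and Ms4a6b (chr19:11516512-11531256) on the plus strand. Ms4a6d (chr19:11586604-11604849) and Ms4a3 (chr19:11629496-11640851) close the row on the minus strand, and Ms4a2 sits between them at chr19:11615523-11623719.

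**Figure D1:**
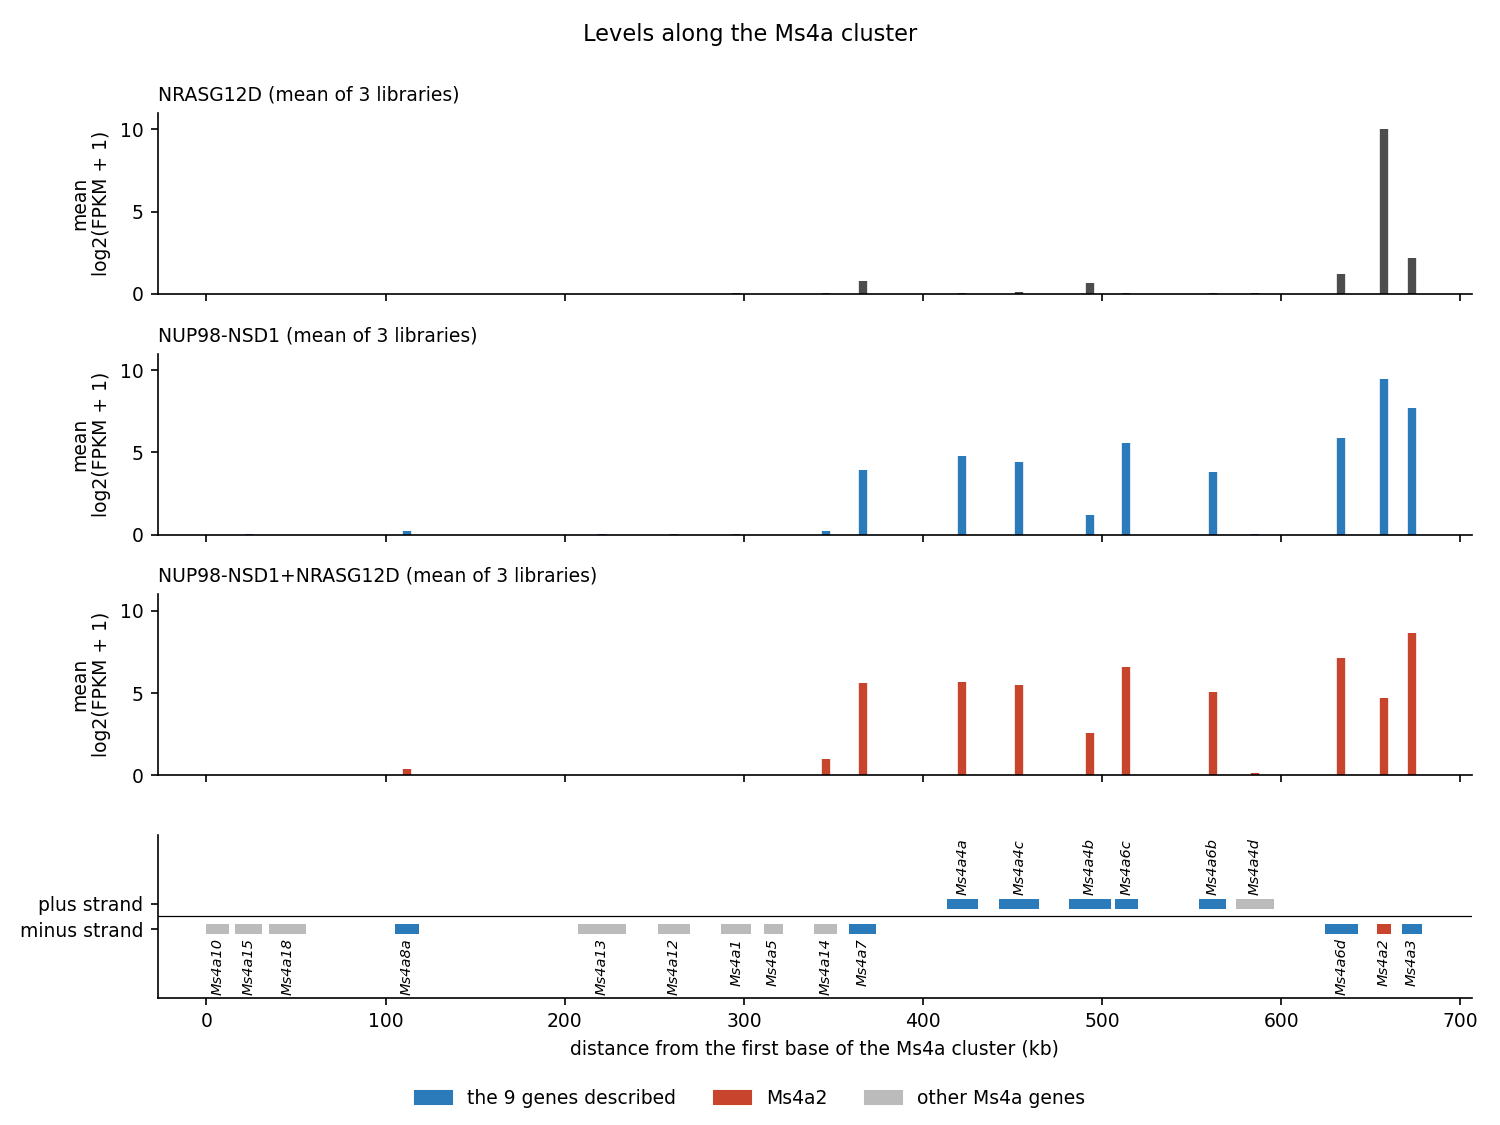
Levels along the Ms4a cluster. The upper panels plot the mean log2(FPKM + 1) of 3 libraries for each Ms4a gene at its distance in kb from the first base of the cluster, and the lowest panel draws the genes to scale by strand. The 8 of the 9 genes that could be fitted stand higher in both groups with the fusion, and Ms4a2 among them runs the other way, with 10.05 in NRASG12D, 9.47 in NUP98-NSD1 and 4.72 in NUP98-NSD1+NRASG12D.

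Among the 9 genes are close relatives. The coding sequences of Ms4a4b and Ms4a4c had 91.8% identical positions, those of Ms4a6b and Ms4a6d 79.9%, and those of Ms4a6b and Ms4a6c 73.9%, against a median of 48.6% over the 36 pairs of the 9 genes. Ms4a3 was no nearer to Ms4a2 beside it (50.1%) than to Ms4a4a (50.5%). Of the stretches of 50 bases in its transcripts, Ms4a4c shared 8.19% with other genes, and Ms4a3, Ms4a4a and Ms4a8a shared none. Ms4a6c shared 51.4%, nearly all of it (49.6%) with BE692007, a noncoding gene read from the other strand of the same stretch. Strand-specific counting is not stated, so reads of Ms4a6c and BE692007 cannot be told apart with certainty.

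The likeness of Ms4a4b and Ms4a4c extends to the 250 bases before their start sites. These windows (RefSeq, GRCm38.p6) were at hand for 8 of the 9 genes, and are shown here, up to the first annotated exon, for that pair, for Ms4a6c, and for the neighbours Ms4a3 and Ms4a2, whose levels ran in opposite directions. Capitals in the windows of Ms4a4b and Ms4a4c mark a PU.1 core (GAGGAA), those in Ms4a2 mark GATA matches (AGATAA or its reverse complement), and those in Ms4a6c mark a run shared with Ms4a6b.
Ms4a4b, chr19:11443308-11443552, plus strand: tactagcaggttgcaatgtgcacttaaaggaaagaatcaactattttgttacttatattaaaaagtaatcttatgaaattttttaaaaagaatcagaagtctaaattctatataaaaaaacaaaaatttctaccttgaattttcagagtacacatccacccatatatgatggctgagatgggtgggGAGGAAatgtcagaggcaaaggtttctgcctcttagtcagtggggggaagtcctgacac
Ms4a4c, chr19:11407411-11407660, plus strand: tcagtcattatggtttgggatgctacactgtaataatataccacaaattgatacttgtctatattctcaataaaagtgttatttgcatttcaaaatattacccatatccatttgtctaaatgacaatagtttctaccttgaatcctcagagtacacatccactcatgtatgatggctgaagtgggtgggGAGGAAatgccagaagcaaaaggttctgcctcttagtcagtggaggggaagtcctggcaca
Ms4a6c, chr19:11469118-11469365, plus strand: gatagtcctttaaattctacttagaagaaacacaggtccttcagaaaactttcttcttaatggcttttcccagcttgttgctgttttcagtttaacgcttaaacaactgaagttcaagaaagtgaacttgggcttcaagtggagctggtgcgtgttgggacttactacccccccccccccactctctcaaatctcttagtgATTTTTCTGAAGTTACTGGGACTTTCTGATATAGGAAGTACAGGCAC
Ms4a3, chr19:11640852-11641101, minus strand: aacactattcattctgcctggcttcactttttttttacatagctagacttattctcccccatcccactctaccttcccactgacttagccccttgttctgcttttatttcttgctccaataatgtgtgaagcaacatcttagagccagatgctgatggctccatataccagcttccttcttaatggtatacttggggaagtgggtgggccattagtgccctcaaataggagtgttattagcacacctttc
Ms4a2, chr19:11623720-11623969, minus strand: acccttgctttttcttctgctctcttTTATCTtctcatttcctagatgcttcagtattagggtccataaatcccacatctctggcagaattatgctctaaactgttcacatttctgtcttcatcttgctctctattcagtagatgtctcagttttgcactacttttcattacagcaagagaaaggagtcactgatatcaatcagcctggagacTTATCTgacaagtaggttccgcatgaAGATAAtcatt

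The windows of Ms4a4b and Ms4a4c had 68.8% identical positions, against a median of 45.9% over 36 pairs of windows, and both held the PU.1 core, which begins at positions -64 and -61 from the start site. That of Ms4a4c lies in an intron of a longer GENCODE transcript of the same gene. The windows of Ms4a6b and Ms4a6c shared a run of 48 bases, 47 of which are shown, against a median of 8 bases for the longest run of a pair. In Ms4a6b the run begins at position -118, and an annotated exon begins 106 bases before the end of that window. Most of the run in Ms4a6b thus lies past the first base of an exon. On either strand, GAGGAA was found in 23.3% of all 32851 windows, the GATA motif in 9.99%, a C/EBP motif (TTGCNNAA) in 9.56%, an E-box (CANCTG) in 44.8% and a pair of spaced GAAA letters as in interferon-stimulated response elements in 2.98%. Among the 9 windows of the 8 genes, Ms4a7 having 2 start sites, 2 held the PU.1 core, 3 an E-box, and 0 a GATA, C/EBP or interferon-stimulated element. The window of Ms4a2 held 3 GATA matches, which begin at positions -224, -37 and -11 from the start. No matches of different motifs overlapped. A match is a string of letters, not a site of binding, and the windows cover a small stretch of each gene's surroundings.

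Ms4a3 was the highest of the 9 genes in all 9 libraries. It stood at 3.31, 4.66 and 2.84 FPKM in NRASG12D, at 315, 313 and 87.4 in NUP98-NSD1, and at 678, 294 and 302 in NUP98-NSD1+NRASG12D libraries. All NUP98-NSD1 and NUP98-NSD1+NRASG12D libraries lay above all NRASG12D libraries, and those of the fusion with and without NRASG12D overlapped. On the log2(FPKM + 1) scale the mean differed from NRASG12D by 5.51 (SE 0.48) in NUP98-NSD1 and by 6.44 (SE 0.35) in NUP98-NSD1+NRASG12D cells, and the mean FPKM were 3.60 ± 0.942 (SD, n = 3) in NRASG12D, 239 ± 131 in NUP98-NSD1 and 425 ± 219 in NUP98-NSD1+NRASG12D libraries, a ratio to the first of 66.2 and 118. Replicate 3 of NUP98-NSD1, in which Ms4a3 was low, was also the lowest of its group in the summed FPKM of 12 neutrophil lineage genes, with 1859 against 5893 and 6295, and 57.4% of all tested genes were lowest in it.

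Ms4a7, a gene of mature macrophages and microglia, stood at 0.494, 1.13 and 0.549 FPKM in NRASG12D libraries. It reached 12.0, 17.01 and 14.5 in NUP98-NSD1 and 25.5, 240.02 and 16.9 in NUP98-NSD1+NRASG12D libraries. The 3 NUP98-NSD1 libraries were close together, whereas replicate 2 of NUP98-NSD1+NRASG12D was 9.42 times replicate 1. The difference from NRASG12D was 3.18 (SE 0.19) in NUP98-NSD1 and 4.83 (SE 0.90) in NUP98-NSD1+NRASG12D cells, in log2.

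Ms4a4a, a macrophage protein found beside the receptor dectin-1, was listed at 0 in replicate 1 and at 0.0787 and 0.0620 in replicates 2 and 3 of NRASG12D, all below the level of 3 fragments (0.171, 0.119 and 0.186 FPKM). It stood at 29.1, 24.9 and 24.2 FPKM in NUP98-NSD1 and at 45.7, 191 and 12.9 in NUP98-NSD1+NRASG12D libraries. The NUP98-NSD1 libraries agreed within 1.20-fold, while those of NUP98-NSD1+NRASG12D spread over 14.8-fold and lay on both sides of them. The differences from NRASG12D were 4.69 (SE 0.11) and 5.58 (SE 0.84) in log2(FPKM + 1). With NRASG12D near 0 these values are set by the 1 that is added and are no fold change, and with 0.1 added they were 7.52 and 8.41. The same holds for Ms4a4c, Ms4a6b and Ms4a6c.

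Ms4a6d, a macrophage protein that works with the complement receptor Vsig4, was the second highest of the 9 in all 6 libraries with the fusion. Its FPKM were 1.16, 1.94 and 0.915 in NRASG12D, 72.6, 53.8 and 50.6 in NUP98-NSD1, and 152, 291 and 63.5 in NUP98-NSD1+NRASG12D libraries. Its mean was 1.34 ± 0.534 (SD, n = 3), 59.0 ± 11.9 and 169 ± 115 FPKM, and each library with the fusion lay far above NRASG12D. The ratio of mean FPKM to NRASG12D was 44.1 in NUP98-NSD1 and 126 in NUP98-NSD1+NRASG12D cells, with log2 differences of 4.69 (SE 0.20) and 5.95 (SE 0.51). Its relatives Ms4a6c and Ms4a6b were listed at 0 in replicates 1 and 3 of NRASG12D and at 0.110 and 0.126 in replicate 2.

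Ms4a6c stood at 59.3, 40.0 and 44.4 FPKM in NUP98-NSD1 and at 136, 174 and 35.4 in NUP98-NSD1+NRASG12D libraries. Ms4a6b was lower, at 10.7, 12.3 and 16.9 and at 43.0, 75.8 and 9.41. In both, replicates 1 and 2 of NUP98-NSD1+NRASG12D lay above the NUP98-NSD1 libraries and replicate 3 below them. The differences of NUP98-NSD1 from NRASG12D cells were 5.54 (SE 0.16) for Ms4a6c and 3.76 (SE 0.18) for Ms4a6b in log2. BE692007 on the strand opposite Ms4a6c stood at 0.965 to 1.37 FPKM in NUP98-NSD1 and at 0.472 to 5.02 in NUP98-NSD1+NRASG12D libraries, far below Ms4a6c in each.

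Ms4a4c and Ms4a4b, the closest relatives, differed widely in level. Ms4a4c was listed at 0, 0.255 and 0 in NRASG12D and stood at 15.3, 17.6 and 29.6 in NUP98-NSD1 and 73.3, 99.2 and 10.9 FPKM in NUP98-NSD1+NRASG12D libraries. Ms4a4b stood at 0.655, 0.481 and 0.598 in NRASG12D, at 2.05, 1.02 and 0.854 in NUP98-NSD1, and at 8.67, 5.46 and 2.31 FPKM in NUP98-NSD1+NRASG12D libraries. Ms4a4b thus had the higher level of the pair in every NRASG12D library and the lower one in every library with the fusion. As 7.73% of the stretches of Ms4a4c are also in Ms4a4b and the handling of such reads is not stated, a part of either value may belong to the other. Its difference between NUP98-NSD1 and NRASG12D cells was the smallest of the 8 genes that could be fitted, 0.51 (SE 0.21) in log2, and fell to 0.23 with quantile normalization and 0.37 with median-ratio scaling. It was also the only one of the 9 whose 3 NUP98-NSD1+NRASG12D libraries all lay above the 3 NUP98-NSD1 libraries, by 1.39 (SE 0.41) in log2.

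Ms4a8a, described in alternatively activated macrophages, was hardly detected. It was listed at 0 in the 3 NRASG12D libraries, at 0.309, 0.0353 and 0.171 FPKM in NUP98-NSD1 and at 0.291, 0.354 and 0.224 in NUP98-NSD1+NRASG12D libraries. The level of 3 fragments was 0.0948 to 0.116 FPKM in NUP98-NSD1 libraries, so replicate 2 of that group lay below it. Ms4a8a did not reach 1 FPKM in any library and was the only one of the 9 left out of the fits, which took genes that reached 1 FPKM in 3 or more of the 9 libraries.

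**Figure D2:**
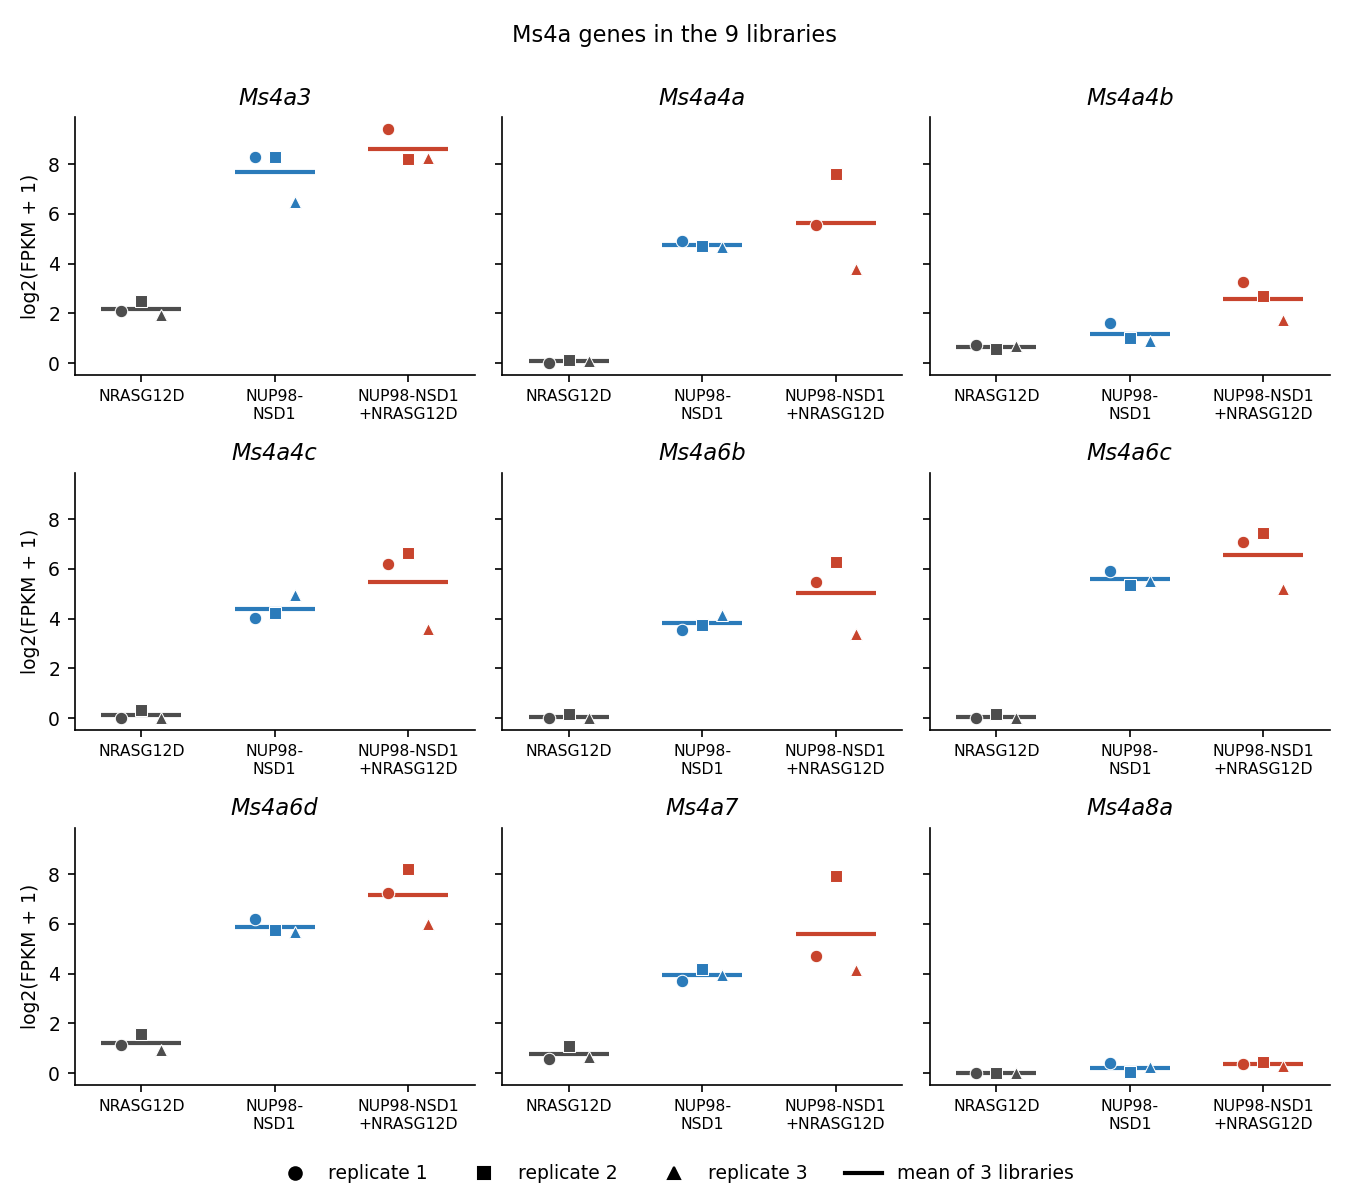
Log2(FPKM + 1) of the 9 genes in each library, with the group on the horizontal axis, the replicate as the symbol and the mean of 3 libraries as a bar. All genes but Ms4a8a stand well above NRASG12D in the libraries with the fusion, apart from Ms4a4b in NUP98-NSD1 cells (0.854 to 2.05 FPKM). The libraries of NUP98-NSD1+NRASG12D lie furthest apart for all genes but Ms4a3 and Ms4a8a, for which those of NUP98-NSD1 do.

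In order of level within NUP98-NSD1 libraries, Ms4a3 was followed by Ms4a6d and Ms4a6c in every library, and Ms4a4b and Ms4a8a came last in every library. Between them Ms4a4a stood above Ms4a4c in replicates 1 and 2 and below it in replicate 3, and Ms4a7 and Ms4a6b changed places in the same way, so these neighbours did not differ beyond their spread. In replicate 2 of NUP98-NSD1+NRASG12D the order changed, and Ms4a7 and Ms4a4a stood next after Ms4a3 and Ms4a6d, ahead of Ms4a6c. Ms4a3 and Ms4a6d were nearly level there, at 294 and 291 FPKM.

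The 9 genes summed to 4.97 to 8.78 FPKM in NRASG12D, 269 to 517 in libraries of NUP98-NSD1 alone and 454 to 1371 in those of NUP98-NSD1+NRASG12D. That was at most 0.00155% of all FPKM of a library in the first group and 0.0453% to 0.0810% and 0.0672% to 0.224% in the others. Ms4a3 made up 53.1% to 58.9% of the sum in NRASG12D libraries. In the libraries with the fusion its share was 58.3% to 66.6% in 4 of them, 32.5% in replicate 3 of NUP98-NSD1 and 21.5% in replicate 2 of NUP98-NSD1+NRASG12D. In that last library Ms4a7 took 17.5% and Ms4a4a 13.9%, against at most 5.40% and 9.01% in the 5 other libraries with the fusion.

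**Figure D3:**
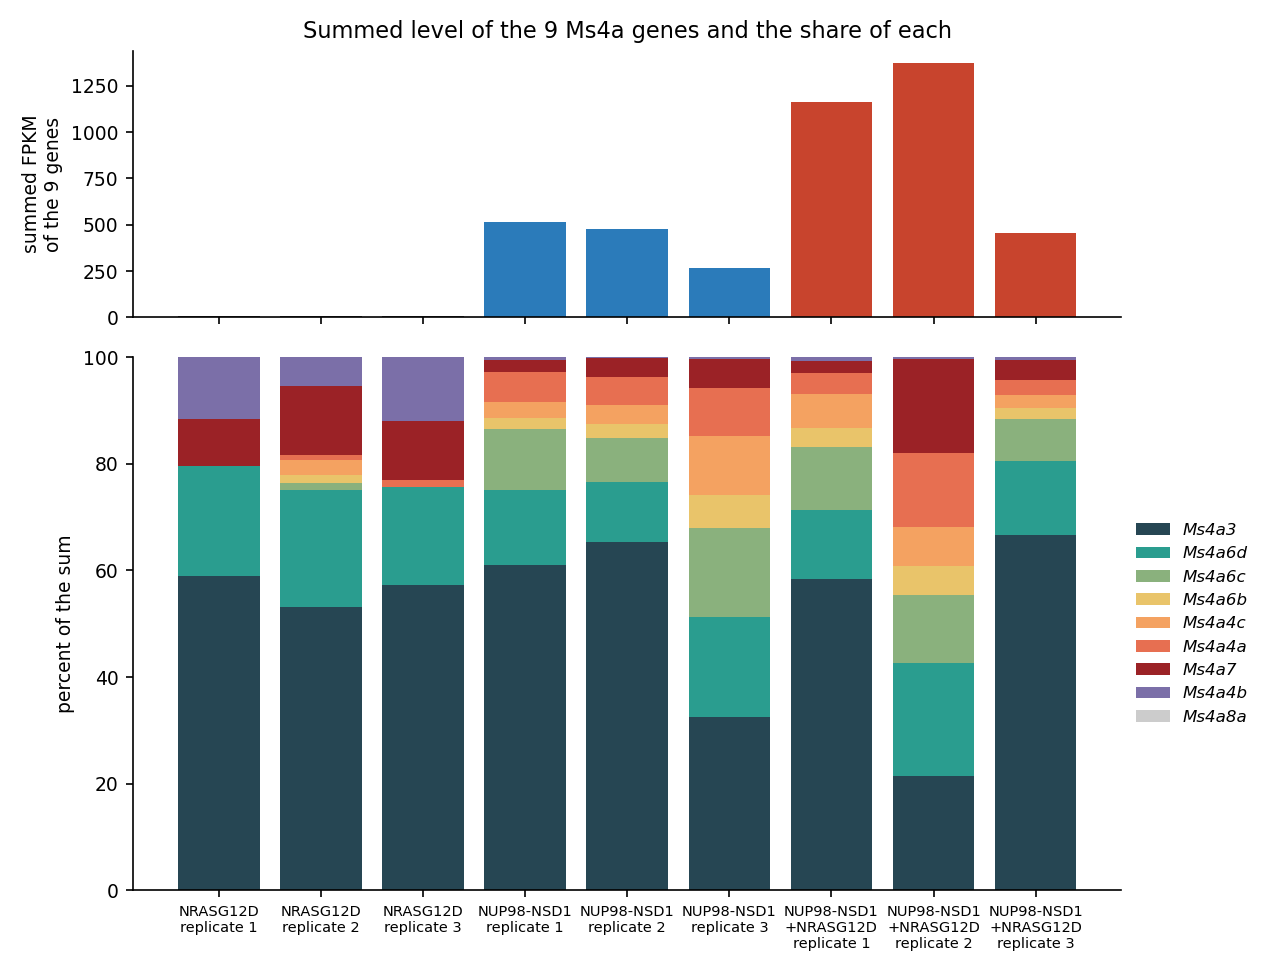
Summed FPKM of the 9 genes (upper panel) and the percent of that sum held by each gene (lower panel) in each library. Ms4a3 holds over 50% except in replicate 3 of NUP98-NSD1 (32.5%) and replicate 2 of NUP98-NSD1+NRASG12D (21.5%), where the other 8 genes fill the rest.

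Against NRASG12D cells, the first comparison the design implies, all 8 genes that were fitted lay higher in NUP98-NSD1 cells without overlap, as did 50.7% of the 13493 genes tested. The same held for all 8 in NUP98-NSD1+NRASG12D cells, against 38.7% of the genes tested. When the groups with the fusion were set against each other, 1 of the 8, Ms4a4b, lay higher with NRASG12D without overlap, against 11.6%. As the genes were chosen on these values, nothing is drawn from the counts. The median difference of all tested genes was 0.27 and 0.23 in log2 against NRASG12D, and -0.059 between the groups with the fusion. The first of these moved to 0.012 with median-ratio scaling and -0.040 with quantile normalization, a shift that is small beside the differences of the Ms4a genes other than Ms4a4b.

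The addition of NRASG12D to the fusion, the second question, was marked by the distance between the 3 libraries. Relative to the NUP98-NSD1 mean, replicate 2 was higher for all 9 genes, from 1.23-fold for Ms4a3 to 16.5-fold for Ms4a7 and 7.33-fold for Ms4a4a. Replicate 1 was higher for all 9 as well, from 1.70-fold for Ms4a8a to 6.63-fold for Ms4a4b. Replicate 3 ranged from 0.495-fold for Ms4a4a to 1.76-fold for Ms4a4b. Replicate 2 held the highest value of its group for 7 of the 9 genes, and replicate 3 the lowest for 8, whereas 26.9% of all tested genes were highest in replicate 2 and 34.1% lowest in replicate 3. The differences from NUP98-NSD1 cells were 0.89 (SE 0.85) for Ms4a4a, 0.93 (SE 0.57) for Ms4a3, 0.99 (SE 0.56) for Ms4a6c, 1.08 (SE 0.77) for Ms4a4c, 1.22 (SE 0.68) for Ms4a6b, 1.27 (SE 0.51) for Ms4a6d and 1.66 (SE 0.90) for Ms4a7 in log2. These differences depended on single libraries. Without replicate 2 they were -0.08 for Ms4a4a, 0.50 for Ms4a4c and Ms4a7, 0.55 for Ms4a6c, 0.60 for Ms4a6b and 0.75 for Ms4a6d, and without replicate 3 they were 1.81, 2.04, 2.38, 1.68, 2.05 and 1.84 in the same order. That of Ms4a3 was 0.54 without replicate 1 and 0.32 without replicate 3 of NUP98-NSD1. With array weights, which give discordant libraries less weight, the 8 fitted genes differed by 0.06 to 1.04.

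**Figure D4:**
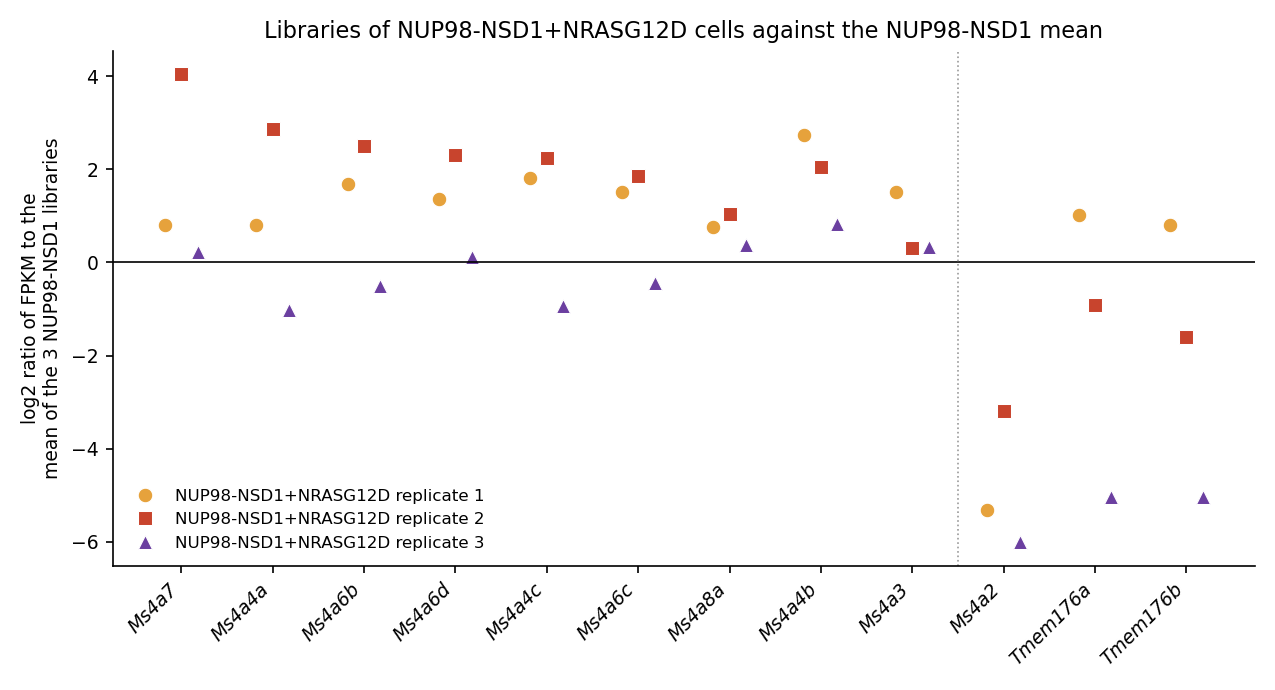
Log2 ratio of each NUP98-NSD1+NRASG12D library to the mean FPKM of the 3 NUP98-NSD1 libraries, for the 9 genes and, right of the dotted line, Ms4a2, Tmem176a and Tmem176b. Replicate 2 lies highest for 7 of the 9 genes and replicate 3 lowest for 8, with Ms4a7 reaching a ratio of 16.5 in replicate 2.

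The range between the lowest and the highest NUP98-NSD1+NRASG12D library was 3.79 in log2 for Ms4a4a and 3.75 for Ms4a7, and 1.20 for Ms4a3, against a median of 0.64 over all tested genes. In NUP98-NSD1 cells the ranges were 0.25 for Ms4a4a and 0.47 for Ms4a7, against a median of 0.30, and Ms4a3 had the widest, 1.84. After the group means were removed, log2 values of Ms4a4c and Ms4a6b followed each other across the 9 libraries (r = 0.987), as did those of Ms4a4a and Ms4a6d (0.943). The 21 pairs without Ms4a3 had a median r of 0.836, and the 7 pairs with Ms4a3 had a median of 0.00057, from -0.185 with Ms4a7 to 0.574 with Ms4a4b. These r describe 9 points in 3 groups, share each library's scaling, and draw most on the group whose libraries lay furthest apart. Ms4a2 itself, which was lower in this group, was nonetheless highest in the same library, replicate 2, and its r with Ms4a7, with group means removed, was 0.964.

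Ms4a2, the beta chain of the IgE receptor, ran against the genes on both sides of it. It stood at 1094, 1152 and 945 FPKM in NRASG12D, at 588, 652 and 917 in NUP98-NSD1, and at 18.1, 78.3 and 11.1 in NUP98-NSD1+NRASG12D libraries. It fell by 5.33 (SE 0.63) against NRASG12D and by 4.74 (SE 0.65) against NUP98-NSD1 cells in log2 in the group with both (limma adjusted p = 0.00100 and 0.0107), the second of which lost the threshold without replicate 3 of NUP98-NSD1 and without the filter. NUP98-NSD1 libraries thus held abundant Ms4a2 beside higher levels of the genes on both sides of it. Whether the same cells held both was not tested.

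The 9 remaining Ms4a genes were near 0. Ms4a1, which encodes CD20, was at most 0.0408 FPKM, Ms4a10 and Ms4a5 were listed at 0 in all libraries, and Ms4a4d, between Ms4a6b and Ms4a6d, was at most 0.141. Ms4a12, Ms4a13, Ms4a15 and Ms4a18 were at most 0.0518. Ms4a14, beside Ms4a7, was the exception. It was at most 0.254 FPKM elsewhere and 5.42 in replicate 2 of NUP98-NSD1+NRASG12D, the library in which Ms4a7 was highest, and it did not pass the filter. Tmem176a and Tmem176b, distant relatives elsewhere in the genome that are known from dendritic cells and macrophages, had another order. Tmem176b stood at 0.0963 to 0.476 FPKM in NRASG12D libraries, 16.5 to 48.9 in those of NUP98-NSD1, and 61.9, 11.8 and 1.08 in NUP98-NSD1+NRASG12D libraries. It rose by 4.68 (SE 0.38, limma adjusted p = 0.000328) and Tmem176a by 3.46 (SE 0.38, limma adjusted p = 0.000998) in NUP98-NSD1 against NRASG12D cells.

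Of the 23 coding genes inside the cluster or within 10 genes on either side, 9 could be tested, and none of the 3 inside. In NUP98-NSD1 against NRASG12D cells 5 of the 9 were higher and 0 lower, where 42.2% of all tested genes were higher and 9.98% lower. The largest were Slc15a3, a lysosomal peptide transporter, by 1.55 (SE 0.15, limma adjusted p = 0.00059), the nucleolar gene Ccdc86 by 1.05 (SE 0.13, limma adjusted p = 0.0014) and Mrpl16, a mitochondrial ribosomal protein, by 0.86 (SE 0.12, limma adjusted p = 0.0021). In NUP98-NSD1+NRASG12D against NRASG12D cells 5 were higher and 0 lower, where 24.2% of tested genes were higher and 14.1% lower. Slc15a3 stood at 0.0270 to 0.166 FPKM in NRASG12D libraries, 1.77 to 2.48 in libraries of NUP98-NSD1 alone and 4.28, 37.02 and 9.47 in NUP98-NSD1+NRASG12D libraries, so that it too was highest in replicate 2. The median difference of the 9 was 0.61 and 0.86 against NRASG12D cells, next to the 0.27 and 0.23 of all tested genes. Between the groups with the fusion, where 2.30% of tested genes were higher and 6.31% lower, limma called 0 of the 9, and 2 had an unadjusted p under 0.05. The noncoding genes AW112010 and BE692007, also inside the cluster, were not in this list. In NUP98-NSD1 against NRASG12D cells they rose by 2.87 (SE 0.13) and 1.06 (SE 0.14), with limma adjusted p of 4.05e-05 and 0.00159. BE692007 did not pass the threshold in a fit of all 9 libraries (limma adjusted p = 0.0878).

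Genes whose proteins are known to act with Ms4a proteins were read from a list of 8, of which 7 could be tested. Clec7a, the dectin-1 receptor that Ms4a4a accompanies, stood at 0, 0.240 and 0.04001 FPKM in NRASG12D, at 14.7, 18.6 and 17.6 in NUP98-NSD1 and at 19.8, 89.1 and 8.67 in NUP98-NSD1+NRASG12D libraries. Trem2, a lipid receptor of macrophages and microglia, stood at 0.00858 to 0.408, 17.2 to 24.2 and 41.9, 242 and 82.6. Clec7a rose by 4.04 (SE 0.14) and Trem2 by 4.25 (SE 0.18) in NUP98-NSD1 against NRASG12D cells, and by 4.59 (SE 0.73) and 6.40 (SE 0.58) in NUP98-NSD1+NRASG12D against NRASG12D cells, all with a limma adjusted p of at most 0.00331. Vsig4, the partner of Ms4a6d, was at most 0.0332 FPKM in any library, so this partner was not detectable where Ms4a6d was abundant. Cdkn3, the phosphatase bound by Ms4a3, was 30.9, 34.6 and 20.7 FPKM in NRASG12D, 39.0 to 45.4 in libraries of NUP98-NSD1 alone and 36.4 to 50.0 in those of NUP98-NSD1+NRASG12D. Its difference between NUP98-NSD1 and NRASG12D cells, 0.54 (SE 0.18, limma adjusted p = 0.0436), went to 0.24 with either other scaling (adjusted p = 0.303 and 0.317).

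Of the remaining partners, Tnfrsf18 (GITR), which Ms4a4b accompanies in T cells, was 20.5 to 30.6 FPKM in NRASG12D, 34.8 to 37.0 in libraries of NUP98-NSD1 alone and 9.26 to 12.6 in those of NUP98-NSD1+NRASG12D. It fell by 1.61 (SE 0.16, limma adjusted p = 0.0057) in the group with both against NUP98-NSD1 cells. Fcer1a, the IgE-binding chain next to Ms4a2 in the receptor, fell by 5.26 (SE 0.70, limma adjusted p = 0.00986) in the same comparison, while Fcer1g, the gamma chain shared with other Fc receptors, stood at 1062 to 1182, 1018 to 1128 and 652 to 1458 FPKM. Over the list, 5 of the 7 were higher and 0 lower in NUP98-NSD1 against NRASG12D cells, where 42.2% of all tested genes were higher and 9.98% lower. With quantile normalization 2 were higher and 0 lower, and with median-ratio scaling 2 were higher and 2 lower, the latter Fcer1a at -0.74 and Fcer1g at -0.38 (limma adjusted p of 0.0149 and 0.0223). In NUP98-NSD1+NRASG12D cells 3 were higher and 2 lower against NRASG12D (24.2% and 14.1% of all tested genes), and 0 were higher and 2 lower against NUP98-NSD1 cells (2.30% and 6.31%). The median differences of the 7 were 0.54, 0.64 and 0.10 in log2.

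Transcription factors of the myeloid lineages were read from a list of 15, of which 14 were measured and 13 tested, and 1 was not analysed here. In NUP98-NSD1 against NRASG12D cells 9 were higher and 2 lower, where 42.2% of all tested genes were higher and 9.98% lower, with a median difference of 0.94 in log2. Cebpe, which drives late granulocyte genes, rose by 5.38 (SE 0.55, limma adjusted p = 0.000825) and Cebpd, a relative of Cebpe, by 2.5 (SE 0.30, limma adjusted p = 0.00126). Spi1, which encodes PU.1, stood at 72.6 to 81.3 FPKM in NRASG12D, 108 to 192 in libraries of NUP98-NSD1 alone and 235 to 274 in those of NUP98-NSD1+NRASG12D. Its values in the last group lay close together, while the 9 Ms4a genes spread there from 1.58-fold (Ms4a8a) to 14.8-fold (Ms4a4a). The part of Spi1 in the Ms4a levels was not tested.

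In NUP98-NSD1+NRASG12D against NRASG12D cells 7 of the 13 factors were higher and 4 lower, where 24.2% of all tested genes were higher and 14.1% lower. Cebpe had the largest rise, 6.80 (SE 0.20, limma adjusted p = 1.35e-05), and Gata1, a factor of the mast cell, erythroid and megakaryocyte lineages, fell by 4.40 (SE 0.59, limma adjusted p = 0.00162). Gata2, its relative in progenitors and mast cells, fell by 4.26 (SE 0.68, limma adjusted p = 0.00331). Between the 2 groups that carry the fusion, where 2.30% of tested genes were higher and 6.31% lower, 1 was higher in the one with NRASG12D (Cebpb, by 1.04, SE 0.18) and 4 were lower, with Gata2 at -4.02 (SE 0.70), Gata1 at -3.72 (SE 0.60) and Nr4a1, a factor of patrolling monocytes, at -2.08 (SE 0.26), and limma adjusted p of 0.0211, 0.02, 0.016 and 0.00885. When any 1 NUP98-NSD1 library was left out, Nr4a1 was the only factor still called, and with no filter on low values none was.

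Interferon-stimulated genes were read from a list of 12, of which 11 were tested, because Ms4a4c and Ms4a6c are known to respond to interferon. In NUP98-NSD1 against NRASG12D cells 8 were higher (4 when all 9 libraries were fitted together), where 42.2% of all tested genes were higher. The median difference was 2.01 in log2. The list was led by Irf7 at 3.39 (SE 0.34), Oasl2 at 3.11 (SE 0.42) and Isg15 at 2.97 (SE 0.51), with limma adjusted p of 0.00077, 0.0018 and 0.0039. In NUP98-NSD1+NRASG12D against NRASG12D cells all 11 were higher, where 24.2% of all tested genes were, with a median difference of 4.18. From 7 to 11 were higher when a library was left out. Their summed FPKM was 52.9 to 54.6 in NRASG12D, 89.8, 145 and 254 in NUP98-NSD1 and 236, 1371 and 390 in NUP98-NSD1+NRASG12D libraries. Replicate 2 of the last group was thus highest for both this list and 7 of the 9 Ms4a genes. In NUP98-NSD1 cells the list was highest in replicate 3, as were Ms4a4c and Ms4a6b, while Ms4a6c and Ms4a6d were highest in replicate 1. Between the groups with the fusion 2.30% of all tested genes were higher and 6.31% lower. Of the 11, limma called 0, with 7 at an unadjusted p under 0.05. It called 8 with array weights, 4 without replicate 1 of NUP98-NSD1+NRASG12D and 3 in a fit of all 9 libraries.

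Markers of the cell types that the cultures could hold were read from lists. A list of 12 monocyte and macrophage genes summed to 66.0 to 72.7 FPKM in NRASG12D libraries, 544 to 1018 in libraries of NUP98-NSD1 alone and 1885, 3846 and 4862 in NUP98-NSD1+NRASG12D libraries. Ly6c2 alone gave 1345, 1384 and 3674 of the last 3 sums, and without it, a sum added after the data were seen, they were 540.2, 2462 and 1188, highest in replicate 2. Of the 12, 11 were higher in each group with the fusion against NRASG12D cells, where 42.2% and 24.2% of all tested genes were higher. They were led by Ly6c2, Csf1r and C1qb in NUP98-NSD1 cells (7.91, 4.58 and 4.56 in log2), and the median differences of the list were 3.36 and 4.74. The remaining gene, Cx3cr1, was lower in NUP98-NSD1+NRASG12D cells (-2.15, SE 0.30, limma adjusted p = 0.00200). In NUP98-NSD1 cells its difference was -0.50 (SE 0.27, limma adjusted p = 0.164). Between the groups with the fusion 2 of these 12 were higher, Ly6c2 and Cd14, and 1 lower, Cx3cr1. Of all tested genes 2.30% were higher and 6.31% lower. Of the 12, however, 8 were higher without replicate 1 of NUP98-NSD1+NRASG12D and 0 without any 1 library of NUP98-NSD1. Complement gene C1qb stood at 27.9, 485 and 85.3 and the mannose receptor Mrc1 at 9.89, 132 and 9.61 FPKM in NUP98-NSD1+NRASG12D libraries. Both were highest in replicate 2, as Ms4a7 was, but C1qb was lowest in replicate 1 and Mrc1, like Ms4a7, in replicate 3. The list of 12 neutrophil lineage genes summed to 30.1 to 40.8, 1859 to 6295 and 9395 to 20233 FPKM. Of these, 10 were higher in each group with the fusion against NRASG12D cells, where 42.2% and 24.2% of all tested genes were. The median differences were 6.34 and 8.41. Within NUP98-NSD1+NRASG12D the sums of the whole monocyte and neutrophil lists were highest in replicate 3, in which 8 of the 9 Ms4a genes were lowest. As with Ly6c2, a few genes weighed heavily on the neutrophil sum. S100a8 and S100a9 stood at 8629 and 4273 FPKM of the 20233 in replicate 3. In replicate 1 they stood at 1431 and 527 of 15279. In this list Elane, an early granule protease, stood at 3767, 994 and 1945 FPKM and the late genes S100a8 and Retnlg at 1431, 2049 and 8629 and at 1.45, 19.5 and 356 in NUP98-NSD1+NRASG12D libraries. The late genes did not share 1 order, since Ltf (34.0, 297 and 274 FPKM), Camp (31.6, 68.4 and 61.5) and Mmp8 (471, 502 and 370) were highest in replicate 2. Elane and Ms4a3 were both highest in replicate 1.

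Of the genes that define other lineages, Cd79a, Cd3d, Cd3e, Cd3g, Cd8a and Siglech were at most 0.297 FPKM in every library. Pax5, of the B cell list, reached 0.442 in replicate 1 of NRASG12D. Ncr1, of the T and NK cell list, stood at 0.356 to 0.861 FPKM in NRASG12D and 0.494 to 1.08 in NUP98-NSD1 libraries. It was at most 0.266 in NUP98-NSD1+NRASG12D libraries. Flt3, a receptor of early progenitors and dendritic cells and the only tested gene of the dendritic cell list, stood at 0.0113, 0.0213 and 0 FPKM in NRASG12D, at 4.22, 1.55 and 2.31 in NUP98-NSD1 and at 10.2, 0.525 and 0.0238 in NUP98-NSD1+NRASG12D libraries. It was higher in NUP98-NSD1 than in NRASG12D cells by 1.80 (SE 0.25, limma adjusted p = 0.00203), and was highest in replicate 1 of NUP98-NSD1+NRASG12D. Cd79b stood at 0.989 to 5.59 FPKM in NUP98-NSD1 and reached 9.0 in replicate 1 of NUP98-NSD1+NRASG12D. A list of 4 basophil and eosinophil genes summed to 17.4 to 53.5 FPKM in NRASG12D, 710 to 1468 in libraries of NUP98-NSD1 alone and 25.5 to 646 in those of NUP98-NSD1+NRASG12D. A list of 5 megakaryocyte and erythroid genes summed to 480 to 563, 242 to 300 and 76.4 to 1210.2 FPKM. Within NUP98-NSD1+NRASG12D both were highest in replicate 2, where the platelet gene Pf4 alone stood at 1157. Nkg7, known from cytotoxic lymphocytes, was at most 0.226 FPKM in NRASG12D, 29.8 to 153 in libraries of NUP98-NSD1 alone and 8.34 to 305 in those of NUP98-NSD1+NRASG12D. Replicate 2 of NRASG12D, the only library of its group in which Ms4a4c, Ms4a6b and Ms4a6c were not listed at 0, was also the deepest and the highest of its group in Elane (1.68 FPKM), S100a8 (3.29) and Csf1r (1.28). The part of cell type, maturation and depth in the Ms4a levels was not tested.

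**Figure D5:**
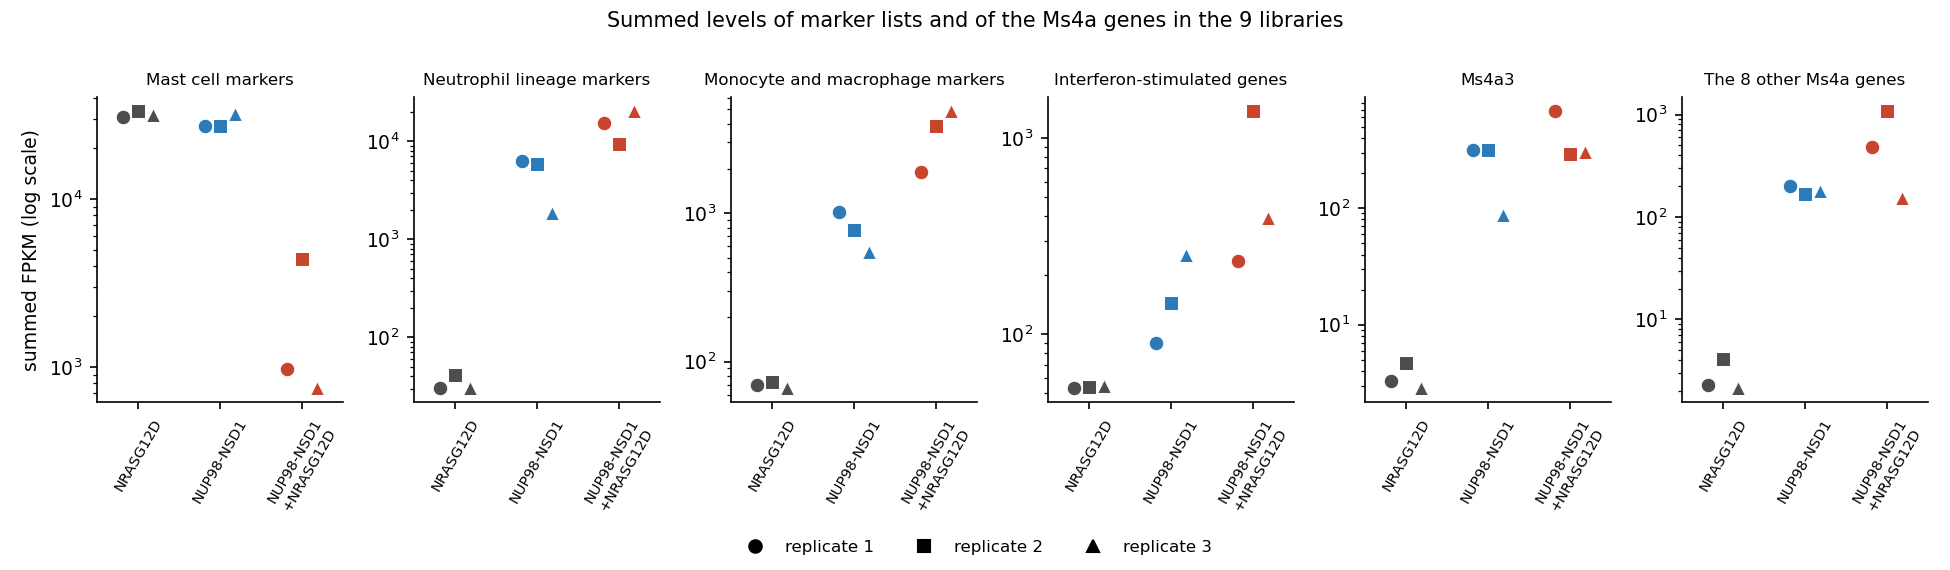
Summed FPKM, on log axes, of lists of mast cell, neutrophil lineage, monocyte and macrophage and interferon-stimulated genes, of Ms4a3, and of the 8 other Ms4a genes in each library. The mast cell list is lowest, at 744 to 4373, in NUP98-NSD1+NRASG12D libraries, and in NUP98-NSD1 libraries it holds 12564 to 14379 from Cpa3, which is listed at 0 in NRASG12D. Replicate 2 (square) of NUP98-NSD1+NRASG12D is the highest in the interferon list and in the sum of the 8 other Ms4a genes.

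The genes outside the family whose log2 values were most like each Ms4a gene over the 9 libraries are given as a description, since the 9 points fall into 3 groups and many genes that follow the groups give a high r. For Ms4a3 they were Rasgrp2, a RAS-family exchange factor, Sgk3 and Elane (r = 0.999, 0.998 and 0.998). Elane stood at 1289, 1224 and 175 FPKM in NUP98-NSD1 libraries, with replicate 3 low as for Ms4a3. For Ms4a4a they were Clec7a (0.996), AW112010 (0.994) and Rab3il1 (0.991). AW112010 is a noncoding gene that lies inside the Ms4a cluster, at chr19:11047612-11055808. Clec7a is also the partner of its protein, and was in the list of partners for that reason. For Ms4a7 they were Tlr1, Mrc1 and Aif1 (0.991, 0.987 and 0.984), all genes of macrophages.

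For Ms4a6d the nearest genes were Slc12a9, Nudt9 and Csf1r (0.993, 0.993 and 0.992), the last being the receptor for macrophage colony-stimulating factor. For Ms4a6c they were Saa3, an acute-phase gene of macrophages, at 0.996, Slc12a9 at 0.995 and Gm5150 at 0.993. AW112010 was also among the nearest of Ms4a4c and Ms4a6b, with 0.990 and 0.995, and Slc12a9 among those of both (0.991 and 0.991). Ms4a4b had no gene as near, with Degs2 at 0.965 before Pisd and Acaa1a at 0.961. Degs2 stood at 0.0708 to 0.138 FPKM in NRASG12D, 0.532 to 1.11 in libraries of NUP98-NSD1 alone and 2.99 to 6.29 in those of NUP98-NSD1+NRASG12D.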

How the data were processed

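RNA of 9 libraries was sequenced as paired reads of 50 bp. The authors aligned the reads with STAR 2.7.2a to GRCm38.p6 with GENCODE annotation and quantified genes with Cufflinks 2.2.1, per their methods and the submitters' processing notes, and deposited FPKM, which are scaled to the mapped fragments of each library. Strand-specific counting and the handling of multiple alignments are not given in the sources used here. Counts, which the study's methods name as the input of its own comparisons, were not used here, so no count model was run.

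Values of the same gene identifier were summed. The 13493 genes that reached 1 FPKM in 3 or more of the 9 libraries were compared as log2(FPKM + 1), a scale that understates the change of low genes. Each pair of groups was fitted on its own 6 libraries with limma 3.58.1 in R 4.3.3 without a block, and p-values were adjusted by Benjamini and Hochberg over all of these genes, with a threshold of 0.05. The fit was tested on simulated data. Depth was estimated from the FPKM steps of 3386 genes that have 1 annotated transcript of over 2500 bp, where 83.9% to 87.3% of low values fell within 0.05 of a whole step, and the level of 3 fragments was taken as the floor. Coordinates are from GENCODE M21 on the same build, in which 54882 identifiers were found, 54867 with equal coordinates, and are counted from 1. Coding sequences and start windows were aligned with Biopython 1.88, the other steps used Python 3.11.15 with pandas 2.3.3 and numpy 2.4.6, and plots were drawn with matplotlib 3.10.9.

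The 9 genes, the lists and the tests were chosen with earlier results of these data known, so no count over them is independent evidence. Genes named besides the Ms4a family and its partners are, for each list and comparison, the 3 with the largest difference past the threshold, those that define a list, and for each tested Ms4a gene the 3 others with the highest r; 2 genes of the lists are not reported here. A few genes whose values are given beside the Ms4a genes (Retnlg, Mrc1, Cd14, Cx3cr1, Pf4, S100a8, Cebpb, Spi1, Degs2, BE692007, AW112010, Cpa3, Ly6c2, Ltf, Camp, Mmp8) were chosen after their values were seen, as were the sums of lists without Cpa3 or Ly6c2. Another pseudocount (0.1), no filter, quantile normalization, median-ratio scaling, a fit of all 9 libraries, array weights, a replicate block and fits without each library were tried.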

Additional observations from a re-analysis of the deposited data

How the results depend on the processing

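The differences of the 8 fitted Ms4a genes from NRASG12D cells kept their sign in all 13 alternatives of each comparison. Their size moved by more than the spread between replicates in 10 of 104 values in NUP98-NSD1 and 5 of 104 in NUP98-NSD1+NRASG12D cells, mostly with the pseudocount of 0.1, under which Ms4a4a differed by 7.52 and 8.41. Between the groups with the fusion, Ms4a4a turned to -0.082 without replicate 2 of NUP98-NSD1+NRASG12D and ranged from there to 1.81 when other libraries were left out. Tmem176a, whose difference of -0.96 did not pass the threshold, ranged from -2.00 to 0.20 when a library was left out, the latter without replicate 3 of NUP98-NSD1+NRASG12D, and with array weights it was -2.63 and Tmem176b -3.23, both past the threshold (limma adjusted p = 0.0394 and 0.0242). Over all tested genes, 7036 were called in NUP98-NSD1 against NRASG12D cells, 3065 with all 9 libraries in one fit, and 4736 to 7948 when a library was left out. In NUP98-NSD1+NRASG12D against NRASG12D cells 5173 were called, and 2941 to 6327 when a library was left out, with 3069, 3159 and 2941 without NRASG12D replicates 1, 2 and 3. Between the groups with the fusion 1162 were called, 152 without the filter, 2251 with all 9 libraries in one fit, 3500 with array weights, and 283 to 2509 when a library was left out (417, 302 and 283 without replicates 1, 2 and 3 of NUP98-NSD1, and 2509 and 494 without replicates 1 and 3 of NUP98-NSD1+NRASG12D); the cause was not tested. Other scalings changed the share of calls that were higher, from 80.9% to 46.7% (quantile) and 52.3% (median ratio) in the first comparison and from 63.1% to 41.8% and 53.1% in the second. The replicate numbers are in the labels but nothing pairs them: correlations of same-numbered libraries after removal of group means lay between -0.177 and 0.160, and with the number as a replicate block 6864, 4531 and 801 genes were called. With 3 libraries a group, an exact permutation test of a single value cannot go below a p of 0.1. Depth limits the NRASG12D values of Ms4a4a, Ms4a4c, Ms4a6b, Ms4a6c and Ms4a8a, of which most lie at 0 or near the level of 3 fragments.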
